A study of Homo sapiens with 32 samples.

Results

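The genes described here are 44 members of the DNA replication and S-phase machinery, taken by name from 22610 gene entries in the deposited expression table. No threshold on a measured value set the list, but it was chosen with earlier results of these data known. They were measured by RNA-Seq in SK-N-BE(2) cells, a human neuroblastoma line that grows as an adherent culture and carries extra copies of the oncogene MYCN. Cultures received 20 μM cannabidiol (CBD, a cannabinoid of the hemp plant that does not intoxicate) or vehicle, 0.1% ethanol, the solvent in which CBD was added, for 3, 6, 12 or 24 h. There were 4 samples in each of the 8 groups of treatment and time and 32 samples in all, and each time had its own vehicle group. A single cell line at a single dose was used, and no untreated culture was among the samples. The ethanol share of the CBD cultures is not given. Levels were given as FPKM, the reads of a gene scaled for its length and for the mapped reads of the sample. All 44 members had a mean of at least 1 FPKM over the samples and were among the 12621 genes that entered the tests.

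The members cover the steps by which a cell copies its genome. In G1 phase the origin recognition complex, CDC6 and CDT1 load the ring of MCM2 to MCM7 onto DNA, and in S phase CDC45, the GINS complex and MCM10 turn that ring into an active helicase. Polymerase alpha and primase start each strand, polymerases delta and epsilon extend it on the PCNA clamp, FEN1 and LIG1 join the lagging-strand pieces, and RPA covers the exposed single strands. Many of these genes are transcribed at the passage from G1 into S phase under E2F transcription factors, which the retinoblastoma protein holds back, so that cultures with many cycling cells carry high levels of their transcripts. In a bulk RNA sample, a smaller share of cells in S phase and less of the transcript per cell cannot be told apart.

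FPKM do not hold the number of reads, and relative depth, estimated from the steps between low values, spanned 1.53-fold over the samples. Its group median was lower with CBD than with vehicle at each time. The medians were 0.925 against 1.05 at 3 h, 0.962 against 1.05 at 6 h, 0.925 against 1.00 at 12 h and 0.999 against 1.02 at 24 h. Single samples had between 19359 and 19962 entries above 0. The cells carried the markers of their label, with MYCN at 1420 to 2450 FPKM, PHOX2A at 322 to 513 FPKM and all 14 sympathoadrenal markers above 1 FPKM on average. None of the 5 glial, 4 endothelial and 5 leukocyte markers reached a mean of 1 FPKM. Of 8 fibroblast or mesenchymal markers 4 did, chiefly THY1 and LUM, while COL1A2 and PRRX1 were at or near 0, and the sum of that list was 102 to 108 FPKM in the CBD samples against 119 to 130 FPKM in the vehicle samples at 24 h. It was 159 to 168 against 165 to 172 FPKM at 3 h. The 5 epithelial markers summed to 4.47 to 5.06 FPKM with CBD and 3.62 to 4.04 FPKM with vehicle at 24 h. The part of these differences in the results below was not tested.

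The promoters of 3 members are shown because they belong to the member with the largest fall at 24 h (UHRF1), to the member that rose most (CDT1) and to the member with the largest fall among those whose listed promoter holds no E2F word (FEN1). Each is the RefSeq sequence on GRCh38.p14 from 250 bases before to 50 bases after the annotated start, 5′ to 3′ on the strand of the gene, which is the plus strand in all 3. Capitals mark the 8-base words of the E2F type that were searched on both strands, TTTCCCGC, TTTCGCGC, TTTGCCGC and TTTGGCGC, which can overlap each other.
UHRF1, chr19:4909251-4909550: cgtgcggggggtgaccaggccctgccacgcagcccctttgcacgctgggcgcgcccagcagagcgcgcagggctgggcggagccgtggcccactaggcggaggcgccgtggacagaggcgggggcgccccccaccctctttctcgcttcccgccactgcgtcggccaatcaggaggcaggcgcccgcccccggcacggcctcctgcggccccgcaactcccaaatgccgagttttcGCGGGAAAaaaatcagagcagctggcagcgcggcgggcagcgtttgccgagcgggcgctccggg
CDT1, chr16:88803539-88803838: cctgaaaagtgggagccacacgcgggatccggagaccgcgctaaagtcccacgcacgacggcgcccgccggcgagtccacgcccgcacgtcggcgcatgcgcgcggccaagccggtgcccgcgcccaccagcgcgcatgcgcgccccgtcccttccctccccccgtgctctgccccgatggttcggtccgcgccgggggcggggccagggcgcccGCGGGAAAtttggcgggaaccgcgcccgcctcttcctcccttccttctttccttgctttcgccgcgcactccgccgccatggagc
FEN1, chr11:61792661-61792960: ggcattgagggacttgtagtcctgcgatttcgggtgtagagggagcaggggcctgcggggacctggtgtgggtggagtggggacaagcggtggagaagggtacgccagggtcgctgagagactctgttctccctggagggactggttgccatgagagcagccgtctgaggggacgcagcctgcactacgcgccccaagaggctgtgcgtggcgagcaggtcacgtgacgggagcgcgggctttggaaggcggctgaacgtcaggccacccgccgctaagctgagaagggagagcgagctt
The word TTTCCCGC lay on the opposite strand in both of the first promoters, beginning at position -14 from the start of UHRF1 and at position -35 from the start of CDT1. The table held promoters for 38 of the 44 members. At least 1 of the words was present in 19 of them (50.0%), against 5.5% of the 9032 tested genes with an entry and 3.3% of all 35116 promoters of that length. MCM2, MCM3, MCM6 and MCM7 held more than 1 word, and MCM6 held 4. Another word, CCAAT, which is not of the E2F type, was present in 23 of the 38 promoters (60.5%), against 37.2% of the tested genes with an entry. A matching word is a description of the letters in this window and does not show that a factor was bound.

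Taken as a sum over the 44 members, the level with CBD began slightly above that of vehicle and ended well below it. At 3 h the 4 CBD samples summed to 2591 ± 41.5 FPKM (SD, n = 4) and the vehicle samples to 2494 ± 34.0 FPKM. The sums were 2425 ± 22.6 and 2457 ± 27.3 FPKM at 6 h. At 12 h they had separated, to 2146 ± 13.1 FPKM with CBD and 2312 ± 45.2 FPKM with vehicle, and at 24 h they were 1676 ± 21.7 and 2004 ± 39.7 FPKM. The CBD sum was thus 104%, 98.7%, 92.8% and 83.6% of the vehicle sum at the 4 times. Because the vehicle sum itself fell from 3 to 24 h, the difference between treatments was added to a decline that the vehicle cultures also showed.

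**Figure D1:**
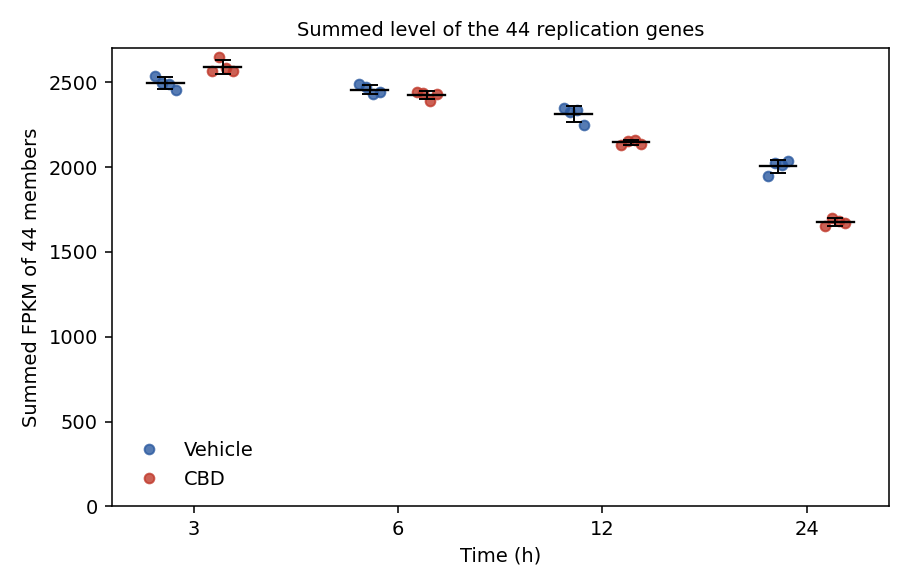
Summed FPKM of the 44 members in each of the 32 samples (points), with the mean and SD of each group of 4 (black), by time in hours; times are evenly spaced on the axis. CBD samples reached 1651 to 1702 at 24 h, below the vehicle samples at 1947 to 2038.

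Each member was compared between CBD and vehicle at each time with limma, fitted across all 12621 genes on log2(FPKM + 1), and was called higher or lower at an adjusted p (Benjamini-Hochberg) under 0.01. Fold changes are on that log2 scale, which understates the change of genes at low FPKM. At 3 h, 1 member was called higher and 0 lower, against 1.18% and 1.28% of all genes. At 6 h, 1 was higher and 6 were lower, against 4.07% and 6.13%. At 12 h, 1 was higher and 24 were lower, against 8.85% and 11.2%, and at 24 h, 2 were higher and 36 lower, against 20.8% and 21.3%. The median log2 fold change of the 44 members was 0.05, -0.03, -0.11 and -0.24 at the 4 times, while that of all genes stayed within 0.01 of 0.

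The separation of samples followed the same course. All 4 CBD samples lay below all 4 vehicle samples in 0 members at 3 h, where 4.36% of all genes had that order, and in 9 members at 6 h (11.1% of all genes). The number was 29 by 12 h (16.9%) and 38 by 24 h (25.9%). The opposite order held for 6, 3, 1 and 2 members at the 4 times, against 5.52%, 8.46%, 13.4% and 25.1% of all genes. Of the members called lower at some time, 18 were lower at 12 and 24 h, 12 at 24 h only, 4 at 6, 12 and 24 h (MCM3, MCM4, POLA1 and POLD3), 2 at 6 and 24 h (LIG1 and CHAF1A) and 2 at 12 h only (ORC1 and PRIM2). CDT1, RFC1, RFC4, PRIM1, POLD1 and POLD2 were not called lower at any time. Across the 44 members, the log2 fold changes at 12 h and 24 h, each measured over the same libraries for all members, had a Pearson r of 0.797 and a Spearman rho of 0.739. Those at 3 h and 24 h had an r of 0.0908 and a rho of 0.126. For a single member whose groups did not overlap, an exact two-sided permutation test of 4 against 4 samples gave p = 0.0286, the smallest that the 70 splits allow. The labels do not say what separated the samples of a group, so p-values measure only the spread between these samples, which may be technical.

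**Figure D2:**
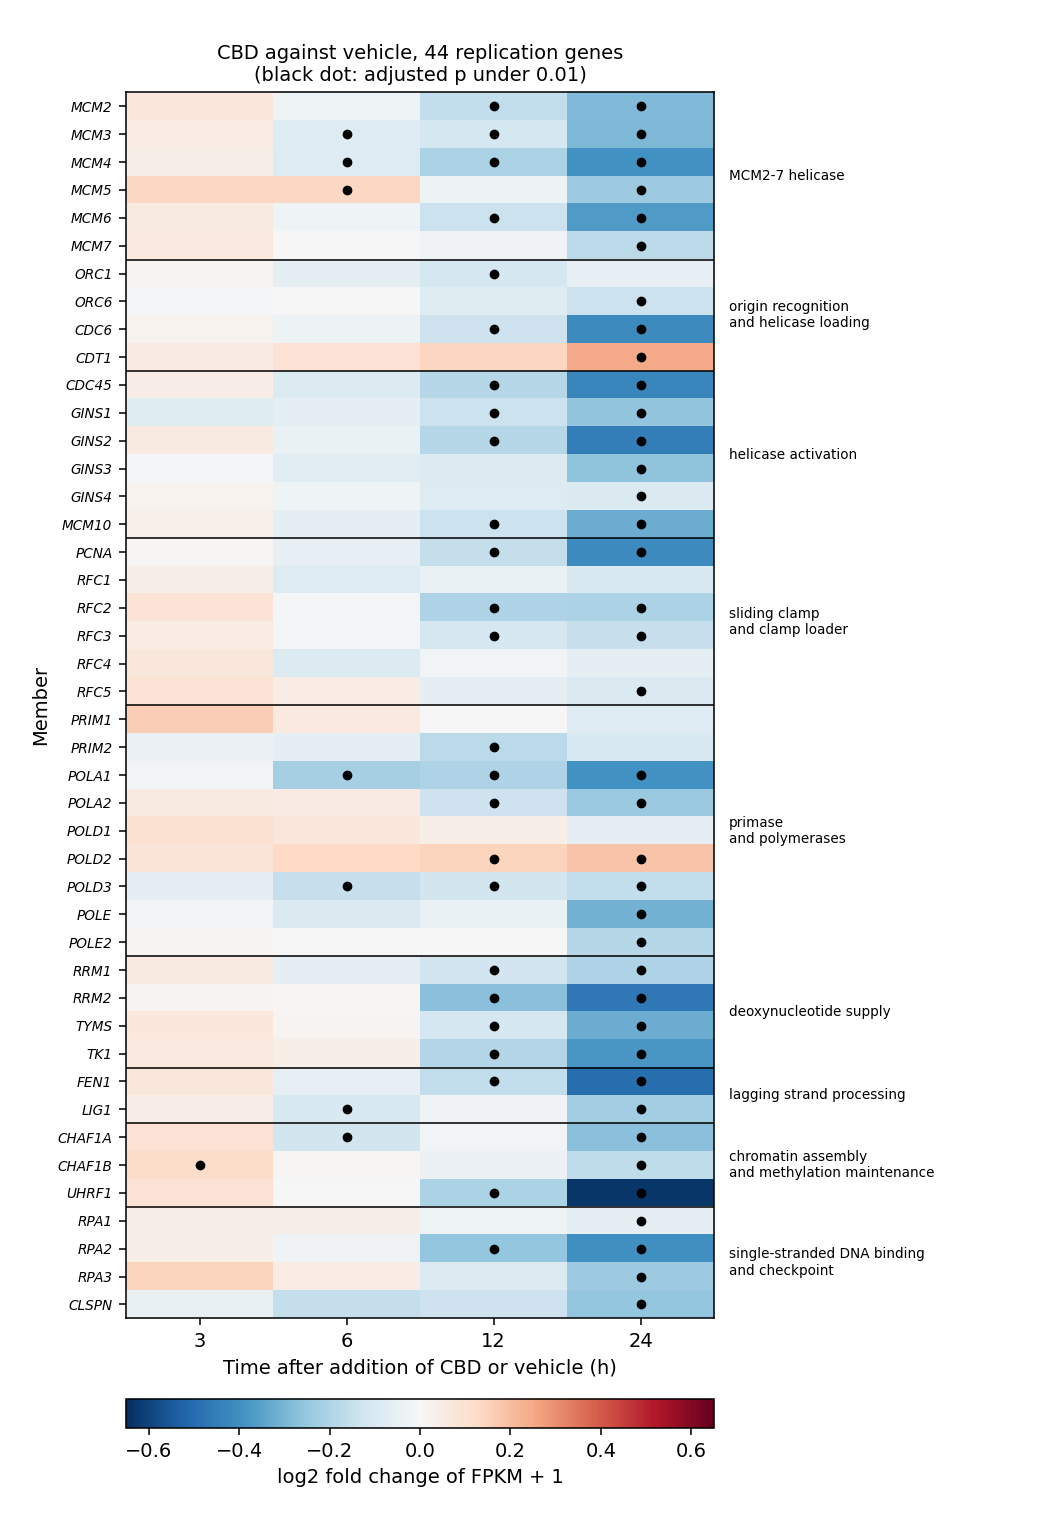
Log2 fold change of FPKM + 1, CBD against vehicle, for each of the 44 members (rows, grouped by role) at 3, 6, 12 and 24 h (columns), with a black dot where the adjusted p was under 0.01. Most of the column at 24 h is blue (36 lower), CDT1 and POLD2 are red there (2 higher), and the column at 3 h is mostly pale red with 1 dot, at CHAF1B.

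Early in the course few members moved. CHAF1B, a subunit of the CAF-1 chaperone that deposits histones on new DNA, was at 22.2, 22.9, 21.6 and 21.1 FPKM in the 4 CBD samples at 3 h and at 20.0, 20.1, 20.5 and 19.8 FPKM in the vehicle samples. Every CBD sample was above every vehicle sample, and the gene rose by 0.12 (standard error 0.02, adjusted p = 0.00353 from limma), the single call at that time. It was lost in a fit of the 3 h samples alone (adjusted p = 0.0964) and without CBD replicate 2 (0.0243), vehicle replicate 2 (0.011) or vehicle replicate 4 (0.017). Although only CHAF1B passed, 36 of the 44 members (81.8%) had a fold change above 0 at 3 h, against 53.7% of all genes. An unadjusted p under 0.05 was reached by 19 members above 0 (43.2%, against 12.9% of all genes) and by 2 below 0 (4.55%, against 10.3%). PRIM1, the small primase subunit, had the largest value of any member then, 0.16, and did not pass (adjusted p = 0.0116).

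At 6 h the largest fall was that of POLA1, the catalytic subunit of polymerase alpha. Its CBD samples were at 13.0, 12.1, 12.3 and 13.9 FPKM and its vehicle samples at 14.9, 14.3, 15.4 and 15.4 FPKM, without overlap, for a log2 fold change of -0.21 (standard error 0.04, adjusted p = 0.000235 from limma). POLD3, an accessory subunit of polymerase delta, fell by 0.15, CHAF1A by 0.12, LIG1, the DNA ligase of the lagging strand, by 0.10, MCM4 by 0.09 and MCM3 by 0.08. In the other direction MCM5 rose by 0.14, with CBD samples at 98.4, 99.9, 98.7 and 95.9 FPKM and vehicle samples at 90.2, 92.7, 88.0 and 86.1 FPKM. MCM5 and MCM4 thus moved in opposite directions at 6 h although their products sit in the same ring, and both were lower at 24 h. In a fit of the 6 h samples alone, 0 of the 44 members passed, the 7 adjusted p lay between 0.0158 and 0.0737, and 18 members had an unadjusted p under 0.05. Leaving out 1 sample of that time gave between 2 and 10 called members, and POLA1 and POLD3 were called in each of these fits.

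All 6 subunits of the loaded helicase, MCM2 to MCM7, were called lower at 24 h and 4 of them at 12 h, and their median log2 fold change at 24 h was -0.29. MCM4 was the furthest from vehicle. Its FPKM at 24 h were 69.5, 71.9, 69.2 and 69.6 with CBD and 89.4, 93.9, 92.2 and 94.3 with vehicle, a fall of 0.40 (standard error 0.02, adjusted p = 6.39e-15 from limma). MCM6 was at 58.6 ± 1.69 FPKM (SD, n = 4) against 75.9 ± 2.47 FPKM and fell by 0.37, and MCM3 and MCM2 fell by 0.29 each. MCM7, the most abundant member with a mean of 219.5 FPKM over all samples, fell least among the 6, by 0.18, from 195.6 ± 4.47 FPKM in vehicle to 173 ± 2.91 FPKM with CBD.

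The loading factors were mixed, and hold a member that rose. CDC6, the ATPase that brings the MCM ring to the origin, was at 25.1, 25.9, 25.1 and 25.8 FPKM with CBD at 24 h and at 32.6, 35.7, 34.5 and 34.6 FPKM with vehicle, a fall of 0.42 (standard error 0.03, adjusted p = 3.70e-13 from limma). CDT1, its partner in loading, went the other way. Its samples at 24 h were at 39.9, 41.5, 44.2 and 40.3 FPKM with CBD and at 36.5, 35.3, 35.0 and 32.5 FPKM with vehicle. CDT1 rose by 0.24 (standard error 0.06, adjusted p = 0.00212 from limma), and the call was lost without CBD replicate 3 (adjusted p = 0.0114) or vehicle replicate 4 (0.0117). ORC6 fell by 0.14. ORC1, the largest subunit of the origin recognition complex, was at 11.4 to 12.9 FPKM with CBD and 12.3 to 12.6 FPKM with vehicle at 24 h, so that its groups overlapped, and its value of -0.05 did not pass (adjusted p = 0.08). At 12 h its groups had been apart, at 12.8 to 13.6 FPKM against 14.1 to 14.6 FPKM, and it had been called lower by 0.11. Without CBD replicate 2 ORC1 passed at 24 h too (-0.08, adjusted p = 0.00234), and it also did with median-ratio scaling (0.00867).

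All 6 genes that activate the helicase were lower at 24 h, and 4 of them at 12 h. GINS2, a subunit of the GINS complex, led this group, with CBD samples at 40.3, 42.5, 40.9 and 39.9 FPKM and vehicle samples at 53.8, 57.9, 55.4 and 57.9 FPKM at 24 h. The highest CBD sample was below the lowest vehicle sample by more than the range of either group, and the fall was 0.45 (standard error 0.03, adjusted p = 1.34e-12 from limma). CDC45, the third part of the active helicase, fell by 0.42, from 29.5 ± 1.11 to 21.7 ± 0.704 FPKM (SD, n = 4). MCM10, GINS3 and GINS1 fell by 0.32, 0.26 and 0.26. GINS4 changed least, by -0.10, with overlapping groups (12.8 to 13.6 FPKM against 13.5 to 14.4 FPKM), and its call was lost in a fit of the 24 h samples alone (adjusted p = 0.0182) and without CBD replicate 1 (0.0115) or vehicle replicate 4 (0.0116). Of the exon bases of GINS4, 23.4% overlap antisense genes. The share is 23.6% for MCM2, 10.9% for GINS3 and 10.6% for RFC5. The study describes the run as first-strand without saying whether strand was used in counting.

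In the clamp and its loader, the clamp stood apart from the loader. PCNA, the ring that tethers the polymerases to DNA, was at 132.2, 135, 132.9 and 140 FPKM with CBD at 24 h and at 174.2, 177.8, 182 and 187.6 FPKM with vehicle. It fell by 0.41 (standard error 0.02, adjusted p = 1.00e-14 from limma). The RFC complex opens that ring, and its 5 subunits moved less. RFC2, RFC3 and RFC5 fell by 0.21, 0.15 and 0.09 (that of RFC5 was lost in a fit of the 24 h samples alone, adjusted p = 0.0242), whereas RFC1 and RFC4 did not pass, with values of -0.10 (adjusted p = 0.172) and -0.06 (adjusted p = 0.15). RFC4 was at 50.2, 52.3, 50.4 and 49.5 FPKM with CBD and at 51.7, 53.2, 52.4 and 53.7 FPKM with vehicle, overlapping groups whose difference had a 95% interval from -0.13 to 0.01.

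Primase and the polymerases were mixed too. Of these 9 genes, 5 were lower and 1 was higher at 24 h. POLA1 stood at 10.5, 11.2, 10.4 and 10.7 FPKM with CBD and 14.1, 14.1, 14.7 and 14.7 FPKM with vehicle, a fall of 0.39 (adjusted p = 3.08e-09 from limma). POLE, the catalytic subunit of polymerase epsilon on the leading strand, fell by 0.31, and POLA2, POLE2 and POLD3 by 0.24, 0.18 and 0.16. The subunits of polymerase delta differed in their calls. POLD3 fell, POLD1, the catalytic subunit, overlapped between groups (15.0 to 15.6 FPKM against 15.3 to 16.8 FPKM, value -0.06, adjusted p = 0.293), and POLD2 rose by 0.18 (standard error 0.04, adjusted p = 0.000188 from limma). POLD2 was at 82.6, 84.0, 83.7 and 81.6 FPKM with CBD and 71.7, 75.1, 71.6 and 73.2 FPKM with vehicle at 24 h, every CBD sample above every vehicle sample. It had also been called higher at 12 h, by 0.15. Both primase subunits missed the threshold at 24 h (PRIM1 -0.08, adjusted p = 0.0723, and PRIM2 -0.10, adjusted p = 0.0179). PRIM2 passed with median-ratio scaling (0.00223), under quantile normalization (0.00847) and without CBD replicate 1 (0.00787). PRIM1 and PRIM2 share 12.2% and 12.5% of their 50-base words, and POLA2 16.8%, with other annotated genes, so reads could be split there.

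All 4 genes of deoxynucleotide supply were lower at 12 h and at 24 h. RRM2, the small subunit of ribonucleotide reductase, whose level follows the cell cycle, was at 59.5, 65.5, 62.7 and 68.9 FPKM with CBD at 12 h against 80.9, 77.7, 77.2 and 73.9 FPKM with vehicle. Its fall of 0.27 was the largest of any member at that time (standard error 0.04, adjusted p = 2.09e-06 from limma). By 24 h the CBD samples were at 39.7, 38.2, 37.1 and 38.2 FPKM and the vehicle samples at 49.9, 55.2, 53.6 and 53.9 FPKM, a fall of 0.46. TK1, the thymidine kinase of the salvage route, fell by 0.38 and TYMS, which makes thymidylate anew, by 0.32 at 24 h. The call of TK1 at 12 h (-0.19, adjusted p = 0.00513) was lost on leaving out CBD replicate 1, 3 or 4 or vehicle replicate 1, 2 or 3 in turn (adjusted p up to 0.0272). That call was also lost in a fit of the 12 h samples alone (adjusted p = 0.0129) and with relative depth as a term (0.0107). RRM1, the large subunit of the reductase, moved less than RRM2, by -0.20, from 80.0 ± 2.02 FPKM in vehicle to 69.5 ± 1.00 FPKM with CBD. Of the exon bases of TYMS, 47.9% overlap antisense genes.

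The member furthest from vehicle was UHRF1, which recognizes hemimethylated DNA behind the fork and brings in the maintenance methyltransferase. At 24 h its CBD samples were at 23.3, 20.7, 24.0 and 23.6 FPKM and its vehicle samples at 34.5, 36.9, 35.7 and 36.9 FPKM. The CBD level was 63.6% of the vehicle level, a log2 fold change of -0.63 (standard error 0.04, adjusted p = 6.34e-14 from limma). Its groups had overlapped at 6 h, between 52.9 and 55.8 FPKM and between 52.0 and 55.7 FPKM, and at 12 h UHRF1 had fallen by 0.21. UHRF1 lies at chr19:4903092-4962165 on GRCh37, and 20.2% of its 50-base words occur in other annotated genes. CHAF1A and CHAF1B fell by 0.27 and 0.16 at 24 h.

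FEN1, the flap endonuclease that trims lagging-strand fragments, came second. Its FPKM at 24 h were 43.3, 45.2, 45.0 and 46.1 with CBD and 60.6, 63.6, 64.1 and 65.4 with vehicle, a fall of 0.49 (standard error 0.02, adjusted p = 5.32e-15 from limma). LIG1, which seals the fragments FEN1 has trimmed, fell by 0.23, from 10.5 ± 0.179 to 8.88 ± 0.356 FPKM (SD, n = 4). FEN1 lies at chr11:61560383-61564710 on GRCh37. In all, 8 of the 36 members called lower at 24 h fell by at least 25% in FPKM. That share was not computed over all genes.

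RPA, the trimer that coats single-stranded DNA, did not move evenly. RPA2 was at 36.7, 36.8, 36.7 and 36.0 FPKM with CBD at 24 h and at 47.5, 48.4, 48.4 and 49.5 FPKM with vehicle, a fall of 0.40 (standard error 0.03, adjusted p = 6.25e-13 from limma). It was also the second largest fall at 12 h, by 0.25. RPA3 fell by 0.24 at 24 h. RPA1, the largest subunit, differed by -0.07 only, at 31.9 to 33.0 FPKM against 33.3 to 34.8 FPKM, and its call (adjusted p = 0.00398) was lost under quantile normalization (0.0183), in a fit of the 24 h samples alone (0.0184) and without CBD replicate 2 (0.0217), vehicle replicate 2 (0.0136) or vehicle replicate 4 (0.0201). CLSPN, the least abundant member, whose product carries the checkpoint signal from stalled forks, fell by 0.25, from 5.97 ± 0.453 to 4.86 ± 0.0792 FPKM (SD, n = 4).

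**Figure D3:**
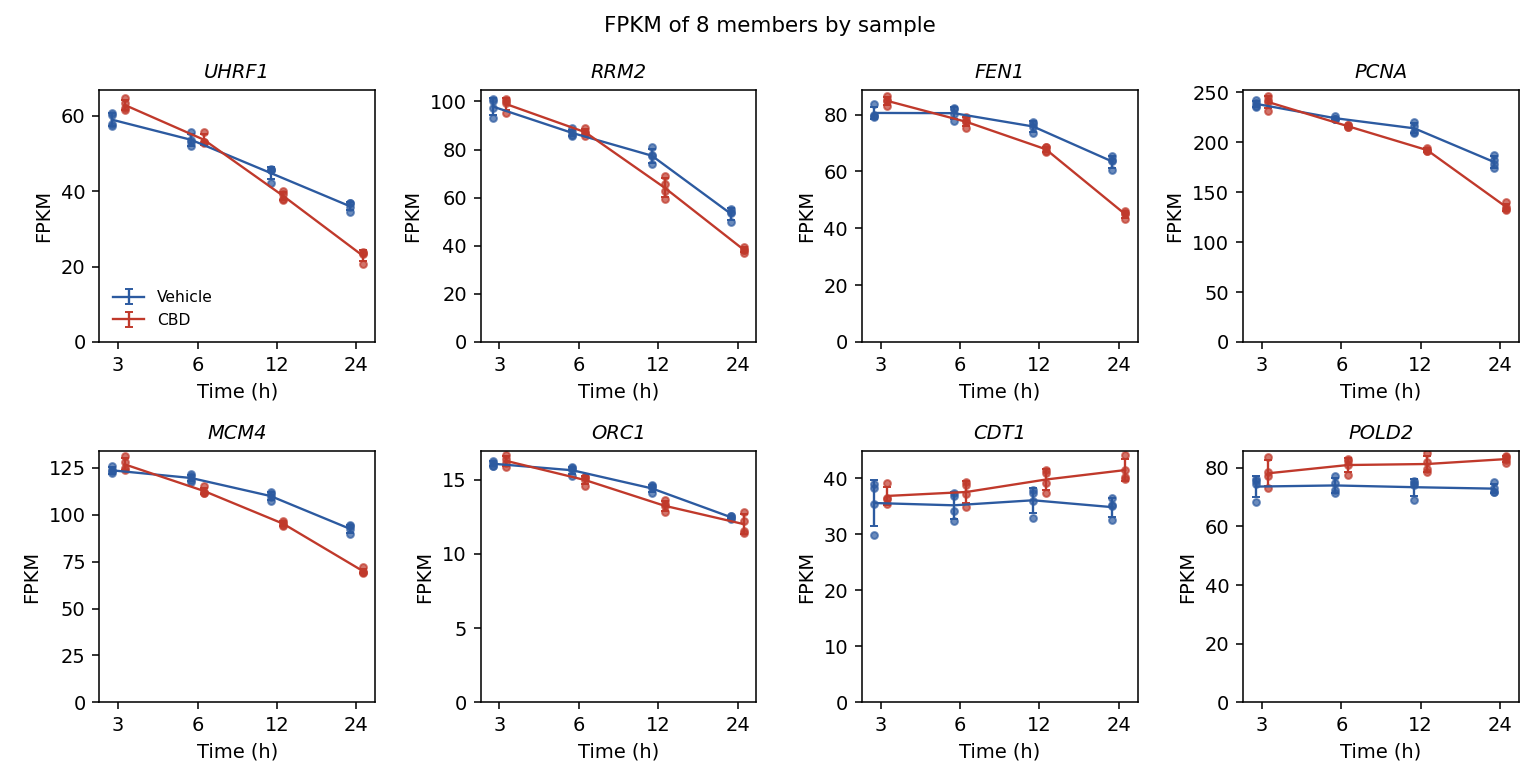
FPKM of 8 members in each sample (points) by time in hours, with lines through group means and bars of 1 SD (n = 4); times are evenly spaced on the axis. UHRF1, RRM2, FEN1, PCNA and MCM4 declined in vehicle and more steeply with CBD, ORC1 overlapped again at 24 h, and CDT1 and POLD2 ended higher with CBD (41.5 against 34.8 and 83.0 against 72.9 FPKM).

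Within the vehicle cultures alone the members declined over the course. Between 3 and 24 h, 36 of 44 were called lower and 0 higher, against 31.1% of all genes called lower, and the median change was -0.27. RRM2 fell most, by 0.87, from 100.9, 100.1, 97.3 and 93 FPKM at 3 h to 49.9, 55.2, 53.6 and 53.9 FPKM at 24 h. UHRF1, CDC6 and GINS1 followed, with falls of 0.70, 0.55 and 0.52. CDT1, RFC1, PRIM1, POLA1, POLD1, POLD2, LIG1 and RPA3 were the 8 members not called, with values from -0.11 (PRIM1) to 0.05 (POLD1).

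With CBD the same interval brought larger falls. Here 40 of 44 members were called lower, against 35.7% of all genes, with a median of -0.54 and the largest falls in UHRF1 (1.42) and RRM2 (1.35). UHRF1 went from 62.9 ± 1.35 FPKM (SD, n = 4) at 3 h to 22.9 ± 1.49 FPKM at 24 h. POLA1, with a change of 0.02 in vehicle (adjusted p = 0.716), fell by 0.36 with CBD, and LIG1, at 0.04 in vehicle (adjusted p = 0.192), fell by 0.23. The change in CBD was the more negative in 42 of 44 members, the exceptions being CDT1 and POLD2. Across members, the changes in the treatments, which share no samples, had a Pearson r of 0.882 and a Spearman rho of 0.861. In the 36 members called lower in both, the log2 change with CBD was 1.90 times that with vehicle (median).

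Whether the CBD effect itself differed between 24 and 3 h was tested by the interaction term of the model. It was negative and past the threshold in 34 of 44 members, against 14.3% of all genes, and 0 members passed in the positive direction. The term was -0.72 for UHRF1 (standard error 0.05, adjusted p = 1.66e-11 from limma), -0.56 for FEN1, -0.51 for GINS2 and -0.48 for RRM2. It did not pass for CDT1, ORC1, ORC6, RFC1, RFC4, PRIM2, POLD1, POLD2, POLD3 and CLSPN, and for CDT1 and POLD2 it was 0.19 (adjusted p = 0.0992) and 0.10 (adjusted p = 0.144).

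**Figure D4:**
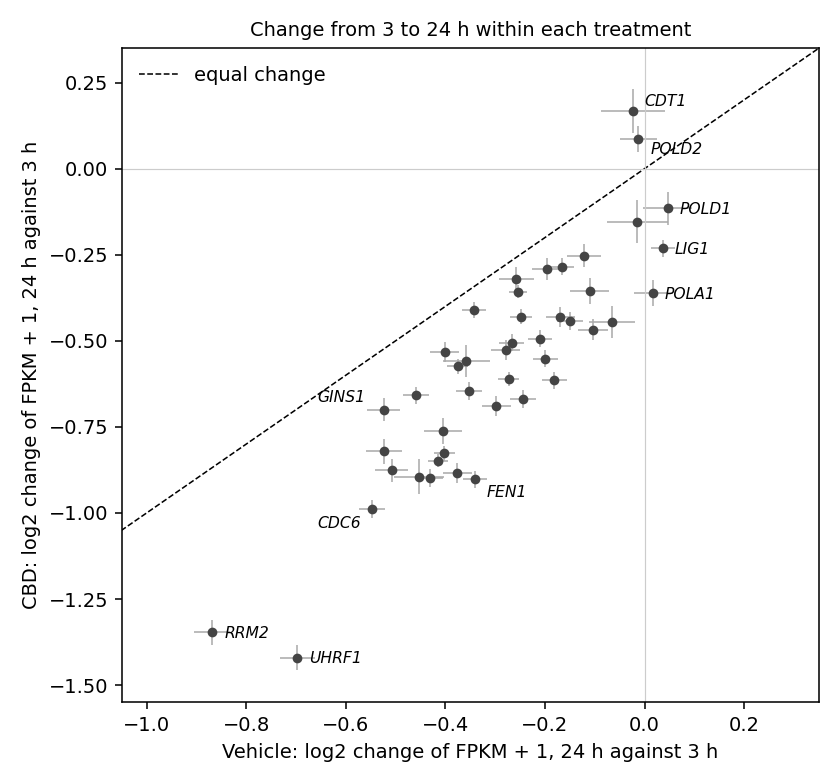
Log2 change of FPKM + 1 from 3 to 24 h in vehicle (horizontal axis) and in CBD (vertical axis) for the 44 members, with bars of 1 standard error and a dashed line of equal change. Of the points, 42 lie below the line, UHRF1 and RRM2 lie lowest (-1.42 and -1.35 with CBD), and POLA1 and LIG1 fell with CBD but lay near 0 in vehicle.

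Members with and without an E2F word in the promoter can be set side by side at 24 h. Of the 19 with a word, 18 were called lower, with a median log2 fold change of -0.29, and the exception was CDT1. Of the 19 without, 12 were called lower, with a median of -0.14. Large falls occurred without a word too, among them FEN1, RRM2, CDC45 and TK1. The groups were not compared by a test, and the remaining 6 members, MCM4, MCM5, GINS4, POLD3, RPA2 and RPA3, had no entry.

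Other genes of the same pathway, 48 in all, came from 4 lists. At 24 h, 26 of them were called lower and 0 higher, against 21.3% and 20.8% of all genes. Their median was -0.11, and the difference from the 44 members was not tested. At 12 h 9 of 48 were lower, against 11.2% of all genes. At 6 h 2 of 48 were lower (POLE3 and NASP), against 6.13% of all genes. RNASEH2A was the 1 gene of 48 called at 3 h, higher by 0.12, when 1.18% of all genes were called higher. The counts at 3 and 6 h were thus near the share of all genes. Among origin firing and licensing controls, 6 of 15 were lower at 24 h, led by RECQL4 (-0.31) and TOPBP1 (-0.24). Of 17 fork accessory genes, 10 were lower, led by DTL (-0.39), which directs CDT1 to destruction in S phase, and USP1 (-0.32). In nucleotide supply 4 of 8 were lower, among them DUT (-0.29), which removes dUTP from the pool, and DTYMK (-0.21). Of 8 histone chaperones and chromatin replication genes, 6 were lower, led by ASF1B (-0.43) and NASP (-0.22).

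Most genes listed as E2F and RB regulators were lower at 24 h, and whether they act upstream of the members here was not tested. Of 19 E2F and RB regulators, 12 were called lower and 1 higher, against 21.3% and 20.8% of all genes. In all, 15 had a fold change below 0 and 4 above 0. CDC25A, the phosphatase that activates the S-phase kinase, fell by 0.48, cyclin E2 (CCNE2) by 0.34 and E2F3 by 0.27, while CDKN1A, the inhibitor p21, rose by 0.27 (standard error 0.06, adjusted p = 0.000263 from limma), with a CBD level of 133% of vehicle in FPKM. CDKN1A had also been higher at 12 h, by 0.25. Cyclin E1 (CCNE1) was the 1 regulator of 19 called at 3 h, when 1.18% of all genes were called higher. It rose by 0.25, to 128% of vehicle in FPKM. For 20 mitosis genes the counts called lower were 10 at 6 h, 11 at 12 h and 7 at 24 h. The shares of all genes were 6.13%, 11.2% and 21.3%. The mitosis genes had medians of -0.15, -0.14 and -0.07. Of the 44 replication genes, 6, 24 and 36 were lower, with medians of -0.03, -0.11 and -0.24. The difference between these courses was not tested.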

How the data were processed

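RNA-Seq was analysed for 32 samples of SK-N-BE(2) cells, grouped by the treatment and time in their labels. The authors sequenced polyA RNA as single reads of 50 bases, trimmed them with Trimmomatic version 0.36 and aligned them to hg19 with TopHat; the deposited FPKM were computed with Cufflinks, and the annotation is not given in the sources used here. The study describes the run as first-strand, without saying whether strand was used in counting. The authors' table of Cuffdiff comparisons, which holds their own fold changes and q values, was not used.

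Entries whose mean reached 1 FPKM were tested on the scale log2(FPKM + 1). All samples shared 1 linear model with a mean for each of the 8 groups, in limma 3.58.1 (eBayes with trend) under R 4.3.3, with Benjamini-Hochberg adjustment over all genes within each comparison and a threshold of 0.01. The code was tested on simulated tables in which 200 of the 12621 genes carried a known change. Of log2 changes of 0.5, 94%, 94%, 93% and 94% were recovered at 3, 6, 12 and 24 h, and of changes of 0.2, 58.5%, 61.5%, 59.5% and 57.5%. The changed genes were drawn at random from all genes tested and were fewer than those called in the data. These shares therefore do not give the recovery for the members. Exact permutation tests compared 4 with 4 samples. Where the labels gave samples the same replicate number, their deviations from the group means had r between -0.08 and 0.09 over 16 pairs. The numbers were therefore not taken to pair samples. That r was taken over all genes tested, so it cannot exclude a factor shared by replicate number in a few genes, such as some members. The permutation tests took no account of such a factor. No samples were found to be near copies of each other, and relative depth covers ratios between samples only.

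The members, the other gene lists and the tests were chosen with earlier results of these data known. Members named were, by rule, the 8 called members with the largest change in each comparison with vehicle, the 4 largest and 4 smallest at 24 h, the 4 with the largest change in vehicle, the 4 with the largest interaction term, and the largest and smallest of each role; of the other lists, up to 4 genes called at 24 h. CDT1, POLD2 and other members outside the rule, and genes of the other lists called before 24 h, were named after their values were seen. Gene positions and shared 50-base words came from GENCODE version 44 on GRCh37, promoters from RefSeq on GRCh38.p14, with words searched in Python version 3.11.15. Alternatives were another offset (0.1 or 5), another FPKM minimum (none or 5), median-ratio scaling, quantile normalization, a replicate block, eBayes without trend, relative depth as a term, an adjusted p of 0.05, only the groups compared, and each sample left out.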

Additional observations from a re-analysis of the deposited data

Results flagged for a closer look

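The 26 members named by rule and the sum over the 44 members gave 216 groups of 4 samples. Each was searched for a sample apart from the other 3, by the gap to its neighbor as a share of the range. Chance gives about 1 flag in 20 groups, and 16 groups had one, none of them in the sum. At 3 h these were POLA1 at 12.8 FPKM in CBD replicate 1, MCM3 at 170.7 FPKM in CBD replicate 2, FEN1 at 83.6 and GINS2 at 77.1 FPKM in vehicle replicate 1, CDC6 at 48.9 FPKM in vehicle replicate 3 and MCM7 at 228.9 FPKM in vehicle replicate 4. At 6 h they were POLD3 at 10.4 FPKM in CBD replicate 4 and UHRF1 at 55.8 FPKM in CBD replicate 3. At 12 h they were MCM3 at 137.9 FPKM in CBD replicate 4 and at 148.8 FPKM in vehicle replicate 4, RPA2 at 43.1 and GINS2 at 59.9 FPKM in CBD replicate 1, and UHRF1 at 42.3 FPKM in vehicle replicate 4. At 24 h they were CHAF1B at 18.2 FPKM in vehicle replicate 4, MCM4 at 71.9 FPKM in CBD replicate 2 and RPA2 at 36.0 FPKM in CBD replicate 4.

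The CBD effect differed between 24 and 3 h by the interaction term in 34 members. The largest terms, on the log2 scale, were -0.72 for UHRF1, -0.56 for FEN1, -0.51 for GINS2 and -0.48 for RRM2.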

How the results depend on the processing

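At 12 h, at 24 h, within each treatment over time and for the interaction, the number of called members stayed within 1.5 times the reported one under every alternative, and no fold change of a named member changed its sign. At 3 h the count of 1 became 2 with median-ratio scaling, 2 with the replicate block, 5 at an adjusted p of 0.05 and 0 with only the groups compared (9 members at an unadjusted p under 0.05), and leaving out 1 sample gave 0 to 4, with 4 without CBD replicate 1 and 2 without CBD replicate 4 or vehicle replicate 1. At 0, which came without CBD replicate 2, vehicle replicate 2 or vehicle replicate 4, there were 9, 18 and 12 members at an unadjusted p under 0.05. At 6 h the count of 7 became 11 at an adjusted p of 0.05 and 0 with only the groups compared (18 members at an unadjusted p under 0.05), and leaving out 1 sample gave 2 to 10, with 2 without CBD replicate 2 and 3 without CBD replicate 3, vehicle replicate 1 or vehicle replicate 2. Without CBD replicate 1, vehicle replicate 3 or vehicle replicate 4 it was 4. The cause was not tested, except that fewer samples inform the spread with only the groups compared. The replicate block gave 10 members at 6 h, 26 at 12 h and 38 at 24 h and, apart from the count at 3 h given above, moved none by over 1.5 times. Leaving out 1 sample gave 19 to 24 members at 12 h and 35 to 38 at 24 h. Depth limits the precision of low members most, and since FPKM hold no read counts no counting interval could be given.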
